A study of Mus musculus with 6 samples.

Results

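The collagen genes were followed in sorted bone marrow cells of mice with acute myeloid leukemia (AML) or chronic myeloid leukemia (CML). A gene was taken as a member when its platform symbol was Col, digits, a, digits, and when at least 1 probe set carried that symbol alone. This gave 44 of the 22180 genes measured, each read from its probe set with the highest mean. The structural classes used below hold 45 mouse collagen genes, and Col21a1 was not analysed here. RNA came from primary sorted cells on 1 Affymetrix array per sample, 3 AML and 3 CML. All 6 samples share the Col2.3 GFP genotype, a transgene that places green fluorescent protein under a Col1a1 promoter fragment active in bone-forming cells. The labels call the sorted cells osteoblastic and the titles call them stromal. The labels give no age, strain, oncogene or healthy control, so every difference below is between the leukemias. Groups were taken from the titles and the design text, while the source name of every sample gives CML, so each direction rests on the titles. Separate mice are not stated, so the p-values set each difference against a spread within groups that could be technical.

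Collagens are extracellular proteins built from alpha chains that wind around each other as triple helices. Fibrillar collagens make the tensile fibres of bone, cartilage and skin, and type I, made of Col1a1 and Col1a2 chains, is the main protein of bone matrix. Network collagens form basement membranes and sheets, FACIT collagens sit on the surface of fibrils, beaded filament collagens form microfibrils around cells, and transmembrane collagens are anchored in the cell membrane. Osteoblasts secrete type I collagen in bulk, whereas cartilage cells make types II, IX, X and XI.

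Fibrillar collagen genes had the widest spread between arrays of any collagen class, and that spread crossed the groups. Their median range over the 6 arrays was 2.64 on the log2 scale, from 0.90 in Col5a3 to 4.94 in Col11a1, while the other classes had median ranges between 0.68 and 1.07. All 11 fibrillar genes were highest on CML 3, and 9 of them were lowest on AML 3. All 11 were also lower in AML by value, with a median log2 change of -0.90 (AML minus CML), but their groups overlapped for every gene. None of the 44 collagen genes passed the threshold of an adjusted p under 0.05 in limma, the linear model fitted to all genes. Of all genes, 1.91% passed, with 0.0812% lower and 1.83% higher in AML. At an unadjusted p under 0.05 in limma, 5 members were lower and 0 were higher in AML. Over all genes, 8.99% met that rule as lower and 12.6% as higher.

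The level that counts as dim was set by olfactory receptor genes, which are rarely transcribed outside the nose. On each array, the 95th percentile of its 1088 olfactory receptor genes served as the limit. That limit lay at log2 intensities from 4.31 to 4.55 on the AML arrays and from 4.72 to 5.10 on the CML arrays. The olfactory receptor genes had a median change of -0.17 with 83.2% lower in AML by value, while the median change over all genes was -0.11. Of the 44 collagen genes, 13 stood at or above the limit on all 6 arrays, 19 on some arrays and 12 on none. The 13 were Col1a1, Col1a2, Col2a1, Col5a1, Col5a2, Col11a2, Col27a1, Col6a1, Col6a2, Col9a2, Col20a1, Col23a1 and Col26a1. They made up 7 of 11 fibrillar, 0 of 9 network, 2 of 9 FACIT, 2 of 6 beaded filament and 1 of 4 transmembrane genes. The classes thus differed in level as well as in range, and the part of level in the range was not tested. Median intensities were 17.2 to 17.8 on the AML arrays and 18.6 to 20.4 on the CML arrays. The number of arrays limits the precision.

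Type I collagen came first among the fibrillar genes by its role in bone and through the reporter, since the Col2.3 GFP transgene carries a Col1a1 promoter fragment. Col1a1 (probe set 17255260) had log2 intensities of 8.63, 9.87 and 7.26 in AML 1, 2 and 3 and of 10.22, 8.71 and 11.95 in CML 1, 2 and 3. AML 2 thus lay above CML 2, and the array with the highest value exceeded the lowest 25.8-fold. On the linear scale its intensity was 154 on AML 3 and 3968 on CML 3. AML arrays averaged 8.59 ± 1.30 and CML arrays 10.30 ± 1.62 on the log2 scale (SD over 3 arrays per group). The difference was -1.71, with a 95% interval from -3.96 to 0.54 (limma adjusted p = 0.316). It was -0.88 without CML 3 and -1.05 without AML 3.

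Col1a2 (probe set 17548532), the partner chain in the type I helix, had 10.52, 11.30 and 9.49 in AML and 11.53, 10.71 and 12.37 in CML as log2 intensities. The arrays stood in the order seen for Col1a1, and AML 2 again lay above CML 2. The difference was -1.10, with a 95% interval from -2.45 to 0.25 (limma adjusted p = 0.292), and it was -0.69 without CML 3 and -0.63 without AML 3. The other Col1a2 probe set (17455801) had 8.12, 9.23 and 6.66 in AML and 9.60, 8.04 and 11.39 in CML. Its difference was -1.67 (limma adjusted p = 0.328), larger in size than that of the first probe set.

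Type XI and type V collagens, which are built into type I and type II fibrils and limit their width, also had CML 3 as their highest array. Col11a1 (probe set 17401902) had log2 intensities of 4.79, 6.08 and 4.10 in AML and of 6.36, 5.34 and 9.04 in CML. It had the largest range of all 44 members, 30.7-fold between AML 3, where it was below the dim limit, and CML 3. Its difference was -1.92 (95% interval -4.26 to 0.41, limma adjusted p = 0.290), and -0.86 without CML 3. Col11a2, another type XI chain, had 5.47, 6.12 and 5.20 in AML and 6.33, 5.33 and 7.84 in CML, a difference of -0.90 (95% interval -2.38 to 0.57) that became -0.23 without CML 3 and -1.49 without CML 2. AML 2 lay above CML 2 for both chains.

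Col5a2 (probe set 17222719) had log2 intensities of 4.80, 5.51 and 4.33 in AML and of 5.49, 5.13 and 7.91 in CML. CML 1 and AML 2 were level, and CML 3 stood apart from the other 5 arrays. The difference was -1.30 (95% interval -3.06 to 0.47, limma adjusted p = 0.328) and became -0.43 without CML 3. Col5a1 had 5.34, 5.71 and 5.33 in AML and 5.88, 5.19 and 7.05 in CML, so that its lowest array was CML 2. Its difference was -0.58 (95% interval -1.65 to 0.49), -0.08 without CML 3 and -1.0 without CML 2. Its other probe set (17383350) gave a different order, with 4.20, 4.50 and 4.17 in AML and 4.57, 5.77 and 5.34 in CML and no overlap between the groups. That probe set differed by -0.94 (limma adjusted p = 0.167), so the Col5a1 probe sets disagree on which CML array was highest.

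Col2a1, the fibrillar collagen of cartilage, had log2 intensities of 5.02, 5.58 and 4.49 in AML and of 5.40, 5.17 and 7.30 in CML. Only CML 3 lay above 6, and the groups overlapped on the remaining arrays. The difference was -0.92 (95% interval -2.34 to 0.49), and it was -0.25 without CML 3. Col3a1, the fibrillar collagen of soft and vascular tissue, had 5.27, 4.50 and 4.47 in AML and 4.94, 5.07 and 5.75 in CML. Its range over the arrays was 2.44-fold, small beside that of type I, and its difference was -0.51 (95% interval -1.24 to 0.22), -0.26 without CML 3 and -0.77 without AML 1. The remaining fibrillar genes Col5a3, Col24a1 and Col27a1 ranged 1.87-fold, 2.41-fold and 2.37-fold, with differences of -0.37, -0.48 and -0.39. Col3a1 and Col5a2 are neighbouring genes, and their ranges were 1.28 and 3.58 on the log2 scale.

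**Figure D1:**
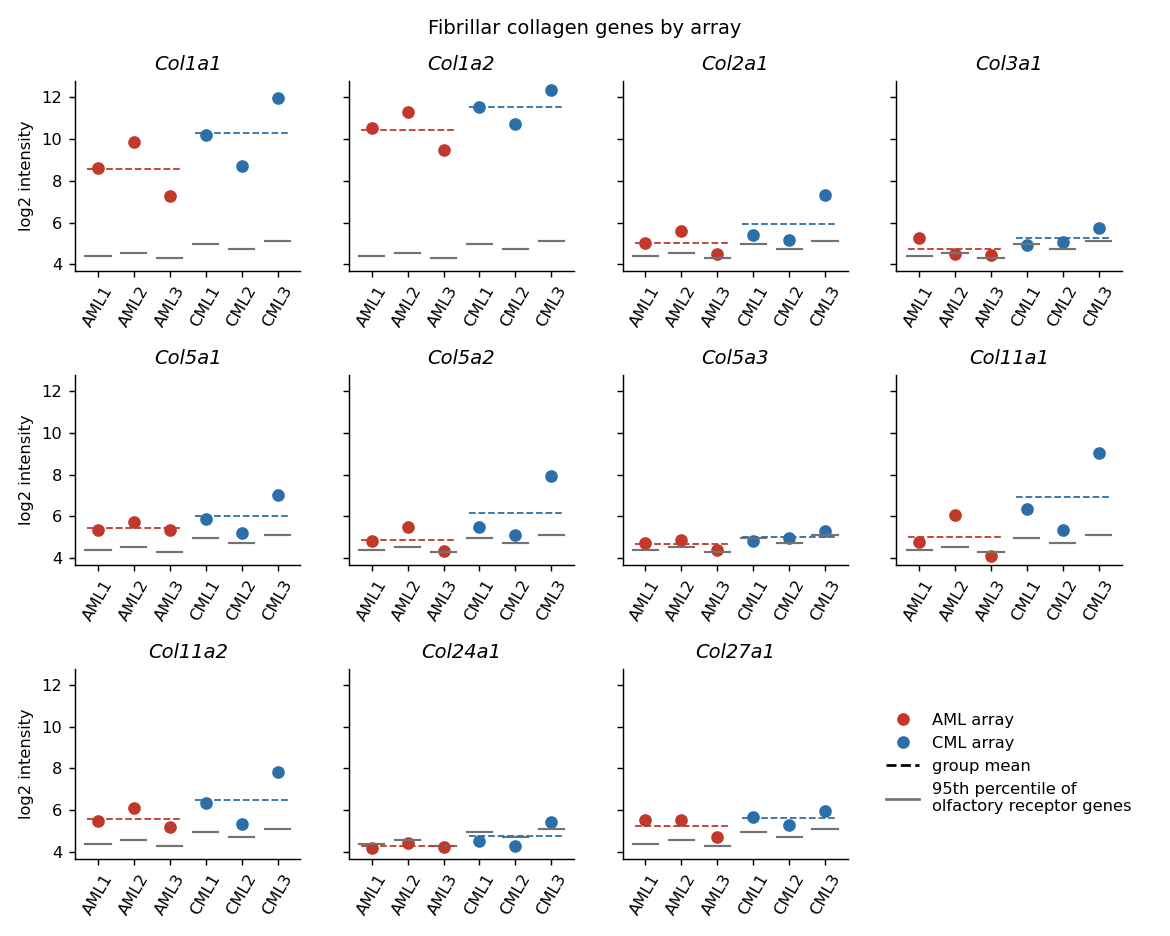
Log2 intensity (vertical axis) of the 11 fibrillar collagen genes on each array (horizontal axis), with AML arrays in red and CML arrays in blue. Dashed lines are group means (n = 3 each) and grey ticks are the 95th percentile of the olfactory receptor genes on that array. CML 3 is the highest array in all 11 panels, and AML 2 lies above CML 2 in every panel except those of Col3a1 and Col5a3.

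Promoters are shown for fibrillar genes that varied together (Col1a2, Col11a1 and Col11a2) and for the Col4a1 and Col4a2 genes, which start close to each other on opposite strands. The windows are RefSeq sequences of build GRCm38.p6 and run from 250 bases before to 50 bases after each gene's start, 5′ to 3′. Of the 44 members, 35 matched a window by symbol, and Col1a1, Col2a1 and Col5a2 were among the 9 without. Where a gene had more than 1 window, the one listed first was used. Capitals mark CCAAT or its reverse complement ATTGG, the box bound by the factor NF-Y, and TATAAA or its reverse complement TTTATA.
Col1a2 (GRCm38.p6, chr6:4505368-4505667, + strand): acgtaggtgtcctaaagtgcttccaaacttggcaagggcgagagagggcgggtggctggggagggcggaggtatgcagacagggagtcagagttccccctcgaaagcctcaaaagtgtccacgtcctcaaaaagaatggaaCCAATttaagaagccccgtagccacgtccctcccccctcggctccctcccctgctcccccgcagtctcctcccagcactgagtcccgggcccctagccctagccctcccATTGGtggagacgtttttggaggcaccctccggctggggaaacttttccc
Col11a1 (GRCm38.p6, chr3:114030290-114030589, + strand): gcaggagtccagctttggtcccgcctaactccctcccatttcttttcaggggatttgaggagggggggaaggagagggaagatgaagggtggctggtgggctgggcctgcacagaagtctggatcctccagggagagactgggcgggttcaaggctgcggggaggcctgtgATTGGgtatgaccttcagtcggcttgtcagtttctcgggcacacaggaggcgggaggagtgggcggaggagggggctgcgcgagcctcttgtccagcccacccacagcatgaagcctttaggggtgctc
Col11a2 (GRCm38.p6, chr17:34038888-34039187, + strand): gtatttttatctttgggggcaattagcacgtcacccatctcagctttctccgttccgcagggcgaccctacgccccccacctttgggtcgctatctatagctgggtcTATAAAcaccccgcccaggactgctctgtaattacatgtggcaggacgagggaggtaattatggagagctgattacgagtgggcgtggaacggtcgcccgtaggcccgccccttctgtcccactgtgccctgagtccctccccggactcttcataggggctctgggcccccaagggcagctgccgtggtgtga
Col4a1 (GRCm38.p6, chr8:11312777-11313076, - strand): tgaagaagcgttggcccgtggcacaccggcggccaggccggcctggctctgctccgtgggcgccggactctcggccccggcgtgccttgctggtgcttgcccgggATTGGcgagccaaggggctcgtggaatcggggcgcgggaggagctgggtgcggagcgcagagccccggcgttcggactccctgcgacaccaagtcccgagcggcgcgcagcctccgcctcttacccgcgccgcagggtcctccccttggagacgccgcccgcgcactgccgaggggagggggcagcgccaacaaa
Col4a2 (GRCm38.p6, chr8:11312555-11312854, + strand): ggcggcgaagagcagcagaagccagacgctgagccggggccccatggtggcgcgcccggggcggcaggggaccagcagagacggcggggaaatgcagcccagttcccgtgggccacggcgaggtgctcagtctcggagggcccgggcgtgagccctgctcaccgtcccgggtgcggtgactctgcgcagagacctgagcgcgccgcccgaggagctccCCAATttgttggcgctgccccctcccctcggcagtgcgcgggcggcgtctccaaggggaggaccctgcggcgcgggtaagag

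In the Col1a2 window a CCAAT lay at bases -109 to -105 from the start and an ATTGG at bases 1 to 5. The Col11a1 window held an ATTGG at -79 to -75, and the Col11a2 window held a TATAAA at -143 to -138 and no CCAAT. Searched on both strands, CCAAT was in 3 of the 8 fibrillar windows, in 12 of the 35 member windows and in 37.4% of all 32851 windows. TATAAA was in 5 member windows (14.3%), against 13.6% of all windows. GGGCGG, a GC box that does not overlap these motifs, was in 22 member windows (62.9%), against 35.7% of all. TGTGGT, the core bound by RUNX factors, was in 2 member windows (5.7%) and in 0 of the fibrillar ones, against 16.8% of all. Shares of all windows count every window of a gene, while member counts use 1 window per gene, so the sets are unlike. The Col4a1 and Col4a2 windows share 78 bases, from 11312777 to 11312854 on chromosome 8.

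The network class had a median change of -0.22, with 7 of its 9 genes lower in AML by value, and a median of -0.005 with 5 lower after cyclic loess. Col4a1 (probe set 17507377), a chain of the basement membrane collagen found in all tissues, had log2 intensities of 4.74, 4.81 and 4.49 in AML and of 4.93, 5.03 and 5.33 in CML. The groups did not overlap, and it differed by -0.41 (95% interval -0.82 to -0.01, limma adjusted p = 0.225), or by -0.27 after median centring. Col4a2, its partner chain, had 4.21, 4.35 and 4.23 in AML and 4.46, 4.11 and 4.64 in CML, below the dim limit on every array. It differed by -0.14 (95% interval -0.56 to 0.27), with a range of 1.44-fold over the arrays, and by -0.29 without CML 2. After median centring its difference was 0.01 and after cyclic loess 0.05, so its direction is not settled. Col4a3, Col4a4, Col4a5 and Col4a6, known from basement membranes of the kidney and other organs, were below the limit on all arrays, with differences between -0.34 and -0.20, although Col4a3 stood at 0.00 after cyclic loess.

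Col8a1 and Col10a1 were the only network genes higher in AML by value. Col10a1, the collagen of hypertrophic cartilage, had log2 intensities of 4.28, 4.93 and 5.04 in AML and of 4.72, 4.42 and 4.06 in CML. CML 3 was its lowest array and AML 3 its highest, the reverse of the fibrillar genes, and only 2 arrays reached the dim limit. The difference was 0.35 (95% interval -0.29 to 0.98, limma adjusted p = 0.436). Leaving out CML 3 gave 0.18, AML 3 gave 0.20 and AML 1 gave 0.58. Col8a1, a short-chain collagen of vessel walls and mesenchyme, was named after its values were seen and had 6.07, 6.38 and 4.80 in AML and 5.67, 4.57 and 6.07 in CML. It was high on AML 1, AML 2 and CML 3, low on AML 3 and CML 2, and differed by 0.32 (95% interval -0.94 to 1.57), or by -0.12 without CML 2.

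The FACIT genes had a median change of -0.34, with 8 of 9 lower in AML by value (6 of 9 after cyclic loess). Col16a1 (probe set 17419131), a fibril-associated collagen of many tissues, had the lowest p of the family. Its log2 intensities were 4.29, 4.46 and 4.35 in AML and 4.73, 4.82 and 5.13 in CML. The groups did not overlap, the difference was -0.52 (95% interval -0.90 to -0.15, limma adjusted p = 0.143), and 3 arrays reached the dim limit. It therefore missed the threshold, and it did so under every alternative.

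Col9a1, Col9a2 and Col9a3 form the type IX helix on cartilage fibrils. Col9a3 had log2 intensities of 4.49, 4.63 and 4.11 in AML and of 5.24, 4.73 and 5.25 in CML, a difference of -0.66 (95% interval -1.18 to -0.14, limma adjusted p = 0.164). Col9a2 had 5.94, 5.98 and 5.99 in AML and 6.13, 6.28 and 6.59 in CML, a difference of -0.37 (95% interval -0.75 to 0.02, limma adjusted p = 0.242). That difference ran from -0.56 after quantile normalization to -0.22 after median centring and was -0.24 without CML 3. For both the groups did not overlap, and the AML arrays of Col9a2 agreed within 0.05. Col9a1 was below the dim limit on all arrays.

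Col22a1, known from tissue junctions such as that of muscle and tendon, had the largest range of the FACIT genes. It had log2 intensities of 4.29, 4.72 and 3.93 in AML and of 4.74, 4.63 and 6.31 in CML. CML 3 was high and the other 5 arrays overlapped, with a range of 5.22-fold and a difference of -0.92 (95% interval -2.05 to 0.22). Without CML 3 its difference was -0.37. Col12a1, which coats fibrils in dense connective tissue, differed by -0.07, which turned to 0.08 after median centring. Col14a1, with a like role, was below the limit on all arrays.

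The type VI genes, which make beaded filaments around cells, had a median change of -0.34. Col6a1 had log2 intensities of 5.77, 5.29 and 5.16 in AML and of 5.81, 5.31 and 6.12 in CML, with AML 2 and CML 2 level. It differed by -0.34 (95% interval -0.97 to 0.29), and its other probe set by -0.14. Leaving out 1 array moved its difference between -0.56 (without CML 2) and -0.15 (without CML 3). Col6a2 and Col6a3, its partner chains, differed by -0.46 and -0.34, and all 3 were highest on CML 3 and lowest on AML 3. Col6a1 and Col6a2 are neighbouring genes. Col6a4 and Col6a5 were below the dim limit on all arrays.

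The transmembrane genes had a median change of -0.36, and 3 of 4 were lower in AML by value. Col13a1, a collagen of cell adhesion sites, had log2 intensities of 4.59, 4.51 and 4.34 in AML and of 5.22, 4.79 and 5.89 in CML. The groups did not overlap, and the difference was -0.82 (95% interval -1.49 to -0.14, limma adjusted p = 0.179). Without CML 3 it was -0.52. Col23a1 had 5.44, 4.95 and 5.45 in AML and 5.81, 5.53 and 5.67 in CML, with no overlap and a difference of -0.39 (95% interval -0.84 to 0.06) that was -0.22 without AML 2 and -0.24 after median centring. Col17a1, of the hemidesmosomes that anchor epithelium, differed by -0.34, and Col25a1 by 0.08.

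Of the 5 collagens outside these classes, all were lower in AML by value, with a median of -0.29, and 3 were so after cyclic loess. Col18a1, a basement membrane collagen that releases endostatin, had log2 intensities of 4.47, 4.09 and 4.41 in AML and of 4.87, 4.79 and 4.69 in CML. The groups did not overlap, the difference was -0.46 (95% interval -0.84 to -0.09, limma adjusted p = 0.175), and it was -0.30 after cyclic loess. CML 3 was the lowest CML array. Col26a1 had 5.46, 5.55 and 5.08 in AML and 5.84, 5.55 and 5.99 in CML, a difference of -0.43 (95% interval -0.89 to 0.03) that was -0.29 without AML 3 and -0.28 after median centring. Col7a1, the collagen of anchoring fibrils in skin, differed by -0.29. Col15a1 and Col28a1 were below the limit on all arrays.

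**Figure D2:**
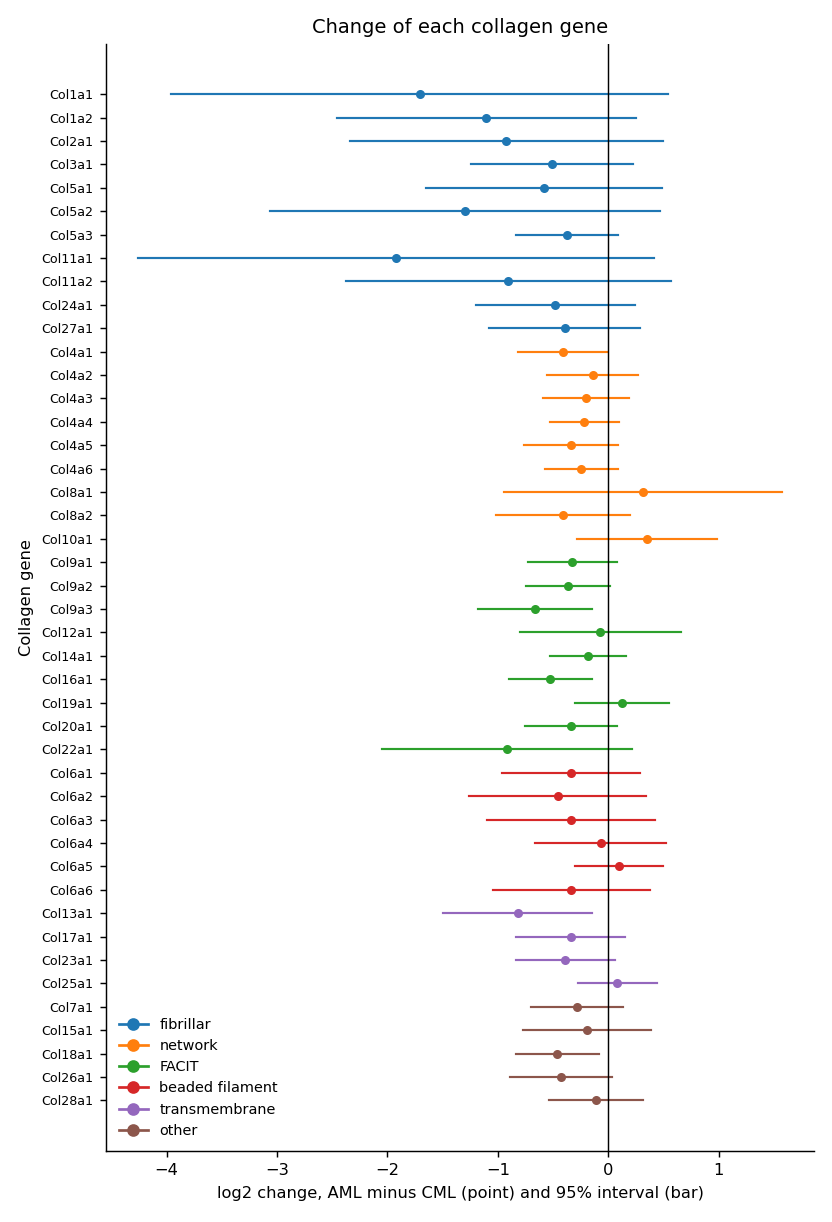
Log2 change, AML minus CML, of the 44 collagen genes (points) with 95% intervals from limma (bars, n = 3 arrays each), coloured by class. The intervals of Col11a1, Col1a1 and Col5a2 are the widest, and 39 of 44 points lie below 0.

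Across the family, 39 of 44 genes were lower in AML by value (88.6%), where 61.7% of all genes and 83.2% of olfactory receptor genes were. The count was 37 after quantile normalization, 35 after median centring and 32 after cyclic loess, and the 11 fibrillar genes were lower by value under each. The family's median change was -0.35, against -0.11 over all genes, and median centring moved these to -0.21 and 0.04. The groups did not overlap, with AML lower, for 11 members (25%), where the share was 17.9% of all genes and 24% of olfactory receptor genes. No member was higher without overlap, where 13.3% of all genes were. Of the 11 members, only Col9a2 and Col23a1 stood above the dim limit on all arrays, and 4 were below it on every array. The share among collagens thus lay near that of olfactory receptor genes, whose part in the result was not tested.

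Single arrays carried much of the family's spread. CML 3 was the highest array for 29 of 44 members (65.9%), where it was so for 26.8% of all genes. AML 3 was the lowest for 28 members (63.6%), against 23% of all genes. Both held for 21 members (47.7%), against 11.3% of all genes. Without CML 3 the fibrillar median became -0.25 and the family median -0.24. Without both CML 3 and AML 3, a setting added after the data were seen, they became -0.12 and -0.14, with 9 of 11 fibrillar genes lower in AML by value. The median over all genes was then -0.08.

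**Figure D3:**
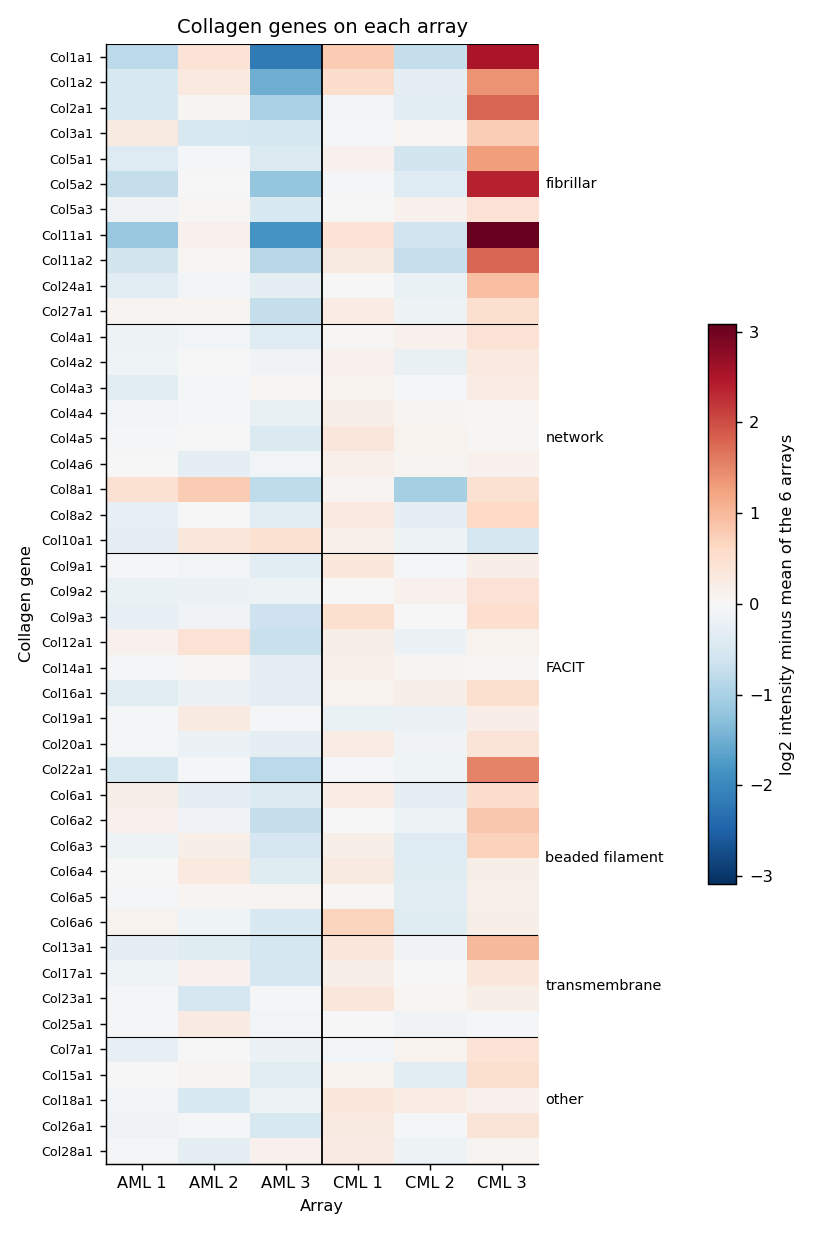
Log2 intensity of each collagen gene (rows, by class) on each array (columns) minus its mean over the 6 arrays. Red is above that mean and blue is below it. The strongest colours lie in the fibrillar block, red on CML 3 and blue on AML 3. Other rows are mostly paler, but Col22a1, Col8a1, Col6a2 and Col13a1 ranged more widely than the fibrillar Col3a1, Col5a3, Col24a1 and Col27a1.

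Fibrillar collagen genes stood high and low on the same arrays as other genes of the labelled lineage. A list of 15 osteoblast and osteocyte genes without collagens had 11 measured members, and all 11 were highest on CML 3. For each array, the list score is the mean deviation of its genes from their own mean over the 6 arrays, on the log2 scale. The osteoblast score was -0.59, 0.12 and -0.95 in AML and 0.19, -0.55 and 1.77 in CML. The fibrillar score was -0.43, 0.04 and -1.0 in AML and 0.20, -0.34 and 1.53 in CML. Both scores put the arrays in the same order, with AML 2 above CML 2. Fibrillar minus osteoblast was 0.15, -0.07 and -0.06 in AML and 0.01, 0.20 and -0.24 in CML. That difference ranged over 0.44, while the fibrillar score ranged over 2.54, and the groups overlapped.

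The osteoblast list had a median change of -0.89, with all 11 genes lower in AML by value and 0 past the threshold. Without CML 3 the median was -0.39 with 9 lower, and without CML 3 and AML 3 it was -0.21 with 6 lower. It was -0.56 without AML 3, -1.35 without AML 2 and -1.42 without CML 2, with all 11 lower in each. The summed intensity of its genes ran from 714 to 2276 on the AML arrays and from 1100 to 5321 on the CML arrays. Bglap, which encodes osteocalcin, had log2 intensities of 4.44, 4.84 and 3.31 in AML and of 4.80, 4.25 and 7.04 in CML, and this late osteoblast marker reached the dim limit on AML 1, AML 2 and CML 3, with a wide margin on CML 3 alone. Sparc and Ibsp, named after their values were seen, encode bone matrix proteins and stood above the limit on all 6 arrays. In bulk samples, fewer cells of a type and less RNA per cell cannot be told apart.

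Pan-haematopoietic genes were higher in AML by value, while erythroid genes were lower. The pan-haematopoietic score was 1.10, 1.10 and 0.35 in AML and 0.04, -1.59 and -0.99 in CML. All 10 of its genes were higher in AML by value, 2 of them past the threshold (Vav1 and Ptpn6), where 1.83% of all genes were. Both calls ended without AML 1, AML 2 or CML 3, where limma called 0 of all genes. All 10 genes were above the dim limit on every array, and their summed intensity ran from 5404 to 9587 in AML and from 1825 to 4801 in CML. Ptprc, the leukocyte marker CD45, had log2 intensities of 9.30, 9.0 and 8.17 in AML and of 8.27, 4.96 and 6.16 in CML. Within CML, CML 2 was lowest on both the pan-haematopoietic and the fibrillar score. The highest CML array was CML 1 on the pan-haematopoietic score and CML 3 on the fibrillar score. Within AML, AML 3 was lowest on both scores. The granulocyte and monocyte lists had medians of 1.13 and 1.56, and the erythroid list had a median of -1.58 with all 5 measured genes lower by value (-0.98 without AML 1). Of the monocyte genes, 3 of 10 were lower by value, and the granulocyte median was 0.75 without CML 2. The erythroid score ran from -2.69 on AML 1 to 0.88 on AML 3 in AML. In CML it ran from -0.09 on CML 1 to 1.62 on CML 2, the highest of all arrays. The part of blood cell RNA in the collagen differences was not tested.

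**Figure D4:**
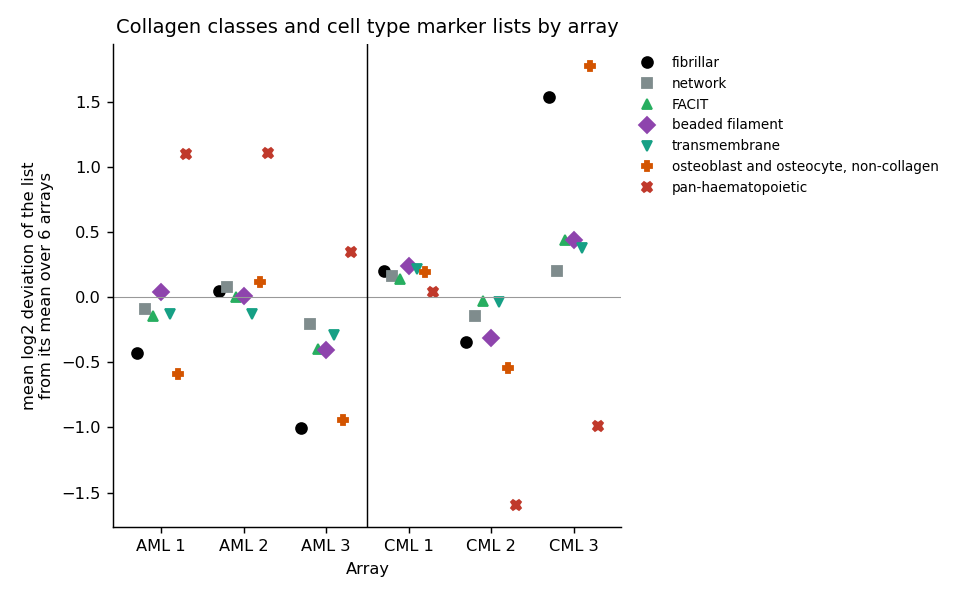
Mean log2 deviation of each list from its mean over the 6 arrays (vertical axis), on each array (horizontal axis), for 5 collagen classes and for the osteoblast and pan-haematopoietic marker lists. The fibrillar and osteoblast symbols stay within 0.24 of each other on every array, and the pan-haematopoietic symbols are higher in AML.

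Types II, IX, X and XI are cartilage collagens, so chondrocyte genes are given beside them. Of 11 chondrocyte genes without collagens, 6 were below the dim limit on all arrays, among them Acan, the main proteoglycan of cartilage. Sox9, the cartilage transcription factor, averaged 5.48 ± 0.05 on AML arrays and 5.62 ± 0.04 on CML arrays (SD over 3 arrays per group). The list's median change was -0.27 (-0.12 after median centring), and its score was -0.23, 0.04 and -0.21 in AML and 0.06, 0.05 and 0.28 in CML. The part of cartilage cells in the collagen values was not tested. The fibroblast and perivascular list had a median of -0.38. Like the fibrillar and osteoblast scores, its score was highest on CML 3 (0.84) and lowest on AML 3 (-0.61). Its median was -0.01 without CML 3 and 0.30 without CML 3 and AML 3, and -0.16 without AML 3. The endothelial, muscle and adipocyte lists had medians of -0.19, -0.19 and 0.02, which became -0.04, -0.04 and 0.17 after median centring.

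Genes that make and export collagen did not share a direction. Of 21 measured genes of collagen hydroxylation, folding and secretion, 10 were higher and 11 lower in AML by value, with a median of -0.11 and 0 past the threshold, and the median was 0.04 after median centring and 0.12 without CML 3. P4hb, the protein disulfide isomerase subunit of prolyl hydroxylase with a general role in folding, had log2 intensities of 9.49, 9.17 and 8.97 in AML and of 8.36, 7.78 and 8.35 in CML. The groups did not overlap, and the difference was 1.05 (SE 0.22, limma adjusted p = 0.0741). Tmem38b, an ion channel of the endoplasmic reticulum, differed by 1.36 (SE 0.30, limma adjusted p = 0.0792). Serpinh1, the collagen chaperone HSP47, was named after its values were seen. It had 5.59, 6.15 and 5.29 in AML and 6.05, 5.32 and 7.91 in CML, so CML 3 was its highest and AML 3 its lowest array, as for Col1a1. Of the 21 genes of the list, 11 were highest on CML 3 and 8 lowest on AML 3, where 26.8% and 23% of all genes were.

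All 11 measured genes of propeptide removal and cross-linking were lower in AML by value (8 of 11 after median centring or cyclic loess). Their median was -0.33, or -0.12 without CML 3, and 0 passed the threshold. Adamts14, a protease that trims procollagen, differed by -0.48 (SE 0.20, limma adjusted p = 0.232). Pcolce2, an enhancer of procollagen trimming, differed by -0.33 and was below the dim limit on all arrays. Lox, which cross-links collagen, was named after its values were seen and had 4.26, 4.62 and 3.44 in AML and 4.06, 4.21 and 6.90 in CML. CML 3 stood apart for Lox, and the other 5 arrays overlapped. Of the 11 genes of the list, 4 were highest on CML 3, where 26.8% of all genes were. AML 3 was the lowest array for 3 of them, against 23% of all genes.

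Collagen receptors were mostly lower by value, at 7 of 10 with a median of -0.32 (-0.09 without CML 3), yet 2 differed strongly the other way. Lair1, an inhibitory collagen receptor of leukocytes, had log2 intensities of 7.31, 7.79 and 6.14 in AML and of 5.38, 4.24 and 4.97 in CML. It differed by 2.22 (SE 0.48, limma adjusted p = 0.0743) with no overlap. Itga1, the collagen-binding integrin alpha 1 chain, had 6.35, 7.37 and 5.63 in AML and 4.76, 4.20 and 4.36 in CML, a difference of 2.01 (SE 0.43, limma adjusted p = 0.0743). Neither passed the threshold. Of 8 genes of collagen degradation and uptake, the median was -0.35 with 5 lower by value, and -0.035 with 4 lower without CML 3. Mmp2, a gelatinase, differed by -1.51 (SE 0.66, limma adjusted p = 0.242), and Pepd, which splits proline dipeptides, by 0.68 (SE 0.24, limma adjusted p = 0.191).

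**Figure D5:**
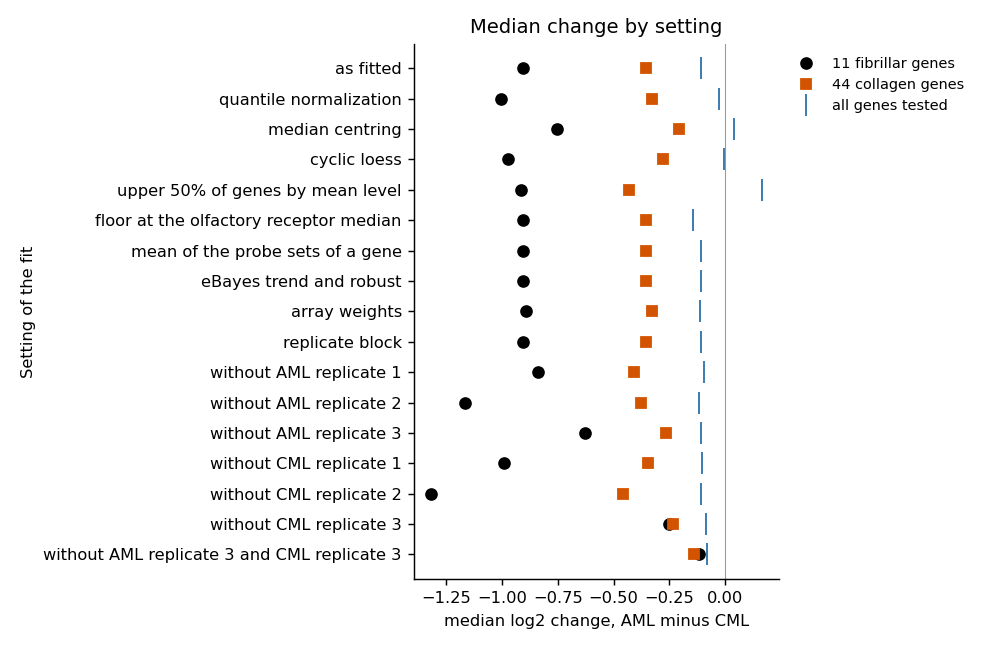
Median log2 change, AML minus CML (horizontal axis), of the fibrillar genes (circles), the collagen family (squares) and all genes tested (bars) under each setting of the fit (rows). The fibrillar median lies between -1.32 and -0.12, and it approaches the family median of -0.24 without CML replicate 3.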

How the data were processed

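RNA from sorted bone marrow cells was measured on 6 Affymetrix arrays, 3 AML and 3 CML. Deposited values were taken as linear intensity, judged from their range; per the submitters' processing notes limma and lumi were used, and background correction, summarization and normalization are not given in the sources used here. Of 39721 probe sets, 23521 had 1 symbol in the platform annotation, 1814 several and 14386 none listed. Each gene was read from its single-symbol probe set of highest mean. Log2 intensities of all 22180 genes were fitted in limma 3.58.1 (R 4.3.3; lmFit, eBayes), two-sided, AML minus CML, with Benjamini-Hochberg adjustment over all genes.

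Values on every array are given for 20 members: 8 fixed by name, the 8 with the lowest p and the 8 with the largest range; Col8a1 was added after its values were seen. Of each pathway list, the 2 genes with the lowest p are named. Members and lists were chosen with earlier results of these data known. The fit was tested on simulated data. All 44 symbols were found in a RefSeq gene table. Alternatives were 3 normalizations, 2 filters, probe set means, eBayes options, array weights, a replicate block and leaving out arrays. The main fit did not treat replicate numbers as pairs. Figures used matplotlib 3.10.9 under Python 3.11.15.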

Additional observations from a re-analysis of the deposited data

How the results depend on the processing

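No collagen gene passed in limma as fitted or under any of 16 alternatives, with 0 to 15 members at an unadjusted p under 0.05. The 15, all lower in AML, arose without CML 2, where 5571 of all 22180 genes met that unadjusted limit in limma in either direction. How many of those were lower in AML is not given here. Over all genes, the count past the threshold was 423 as fitted, 93 after quantile normalization, 64 after cyclic loess, 896 after median centring, 639 with array weights, 243 with the floor and 279 without AML 3. It was 0 in limma without AML 1, AML 2, CML 3 or both arrays numbered 3, where unadjusted p fell under 0.05 for 3048, 3750, 3533 and 2876 genes. With 1 array left out, the fibrillar median ran from -1.32 to -0.25, the family median from -0.46 to -0.24, the network median from -0.27 to -0.20, the type VI median from -0.58 to -0.11, the median of the remaining collagens from -0.40 to -0.15, the cross-linking median from -0.44 to -0.115, the receptor median from -0.41 to -0.09 and the degradation median from -0.62 to -0.035. Without AML 3 and CML 3 the medians were -0.12 for fibrillar and 0.11 for type VI genes, 0.31 for folding and secretion, -0.032 for receptors and 0.24 for degradation, and Col2a1 stood at 0.021. The network median was -0.0046 after cyclic loess, and 0.32 over its 3 genes in the upper 50% of all genes. The median of the remaining collagens was -0.14 after median centring and -0.43 in the upper 50%. Col4a2 turned to 0.0078 after median centring and 0.054 after cyclic loess. The causes were not tested. With the replicate block 0 collagen genes and 0 of all genes passed in limma (2 and 3711 at an unadjusted p under 0.05). Deviations of same-numbered arrays from their group mean correlated at 0.24, -0.30 and -0.25 across genes. Deviations within 3 arrays sum to 0, so these values cannot decide whether the numbers pair the samples.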
